A study of Mus musculus with 39 samples.

Results

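The Hox genes of the mouse were examined as 4 clusters in which chromatin marks can be followed gene by gene and across whole spans. Members were taken by symbol (Hoxa, Hoxb, Hoxc or Hoxd followed by a number) from the GENCODE annotation of GRCm38, which gave 38 genes of 21938 protein-coding genes. Hoxa held 10 of them on chr6:52162417-52260880, Hoxb held 10 on chr11:96194316-96368256, Hoxc held 9 on chr15:102921103-103036852 and Hoxd held 9 on chr2:74668310-74765142. A gene was scored over its body plus 5 kb on either side, and a cluster over its span from the first to the last member, which measured 98.5 kb for Hoxa, 174.0 kb for Hoxb, 116.0 kb for Hoxc and 96.8 kb for Hoxd.

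The chromatin came from nEnd (naive extra-embryonic endoderm), a primitive endoderm stem cell culture made from mouse embryonic stem cells with an OCT4-mCherry reporter, untreated and grown in RACL medium on MEF feeders. Cells were sorted on OCT4-mCherry and PDGFRA-APC into Oct4+, double positive (DP) and Pdgfra+ populations, so that all 3 populations share 1 reporter line and 1 type of culture. CUT&Tag, in which an antibody tethers a transposase to marked nucleosomes, was performed for H3K27me3, H3K27ac, H3K4me1 and H3K9me3 with 3 replicates per population, giving 36 lists of peaks that the authors called in each library with SEACR. The labels number the replicates and the study's text calls them biological replicates. Neither says whether they came from separate cultures or sorts, so p-values measure the spread between these libraries, whatever its source.

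Hox genes encode homeodomain transcription factors that give cells their position along the head-to-tail axis, and within a cluster the genes lie in the order in which they are used. Genes of paralogue groups 1 to 3 act towards the head, groups 4 to 8 in the trunk, and groups 9 to 13 in the posterior trunk, limbs and genital region. In early embryonic cells the clusters are known as classic targets of Polycomb, whose PRC2 complex (EZH2, EED and SUZ12) deposits H3K27me3 over silent developmental genes. H3K27ac marks active promoters and enhancers, H3K4me1 marks enhancers whether active or not, and H3K9me3 marks heterochromatin and repeats.

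A peak list gives the regions that passed the caller, so that a base outside the list is a base without a listed peak and not a base shown to lack the mark. The lists differed widely in length within a mark. H3K27me3 lists held 1143 to 8672 peaks and covered 0.103 to 2.68% of the genome, H3K27ac lists 3079 to 65131 peaks and 0.427 to 7.03%, H3K4me1 lists 1074 to 16057 peaks and 0.0716 to 2.27%, and H3K9me3 lists 5322 to 29970 peaks and 0.667 to 4.47%. The read depth behind the lists is unknown, and in bulk chromatin fewer marked cells and less mark per cell cannot be told apart. The labels were checked at marker loci. H3K27ac peaks stood in at least 2 of 3 libraries at 5 of 5 pluripotency markers (Pou5f1, Nanog, Esrrb, Sox2 and Zfp42) in Oct4+ cells and at 0 of 5 in DP and in Pdgfra+ cells, and at 3 of 5 endoderm markers in Oct4+ cells against 5 of 5 (Pdgfra, Gata6, Gata4, Sox17 and Sox7) in DP and in Pdgfra+ cells. DP cells were sorted as positive for OCT4-mCherry, and Pou5f1, which encodes OCT4, had H3K27ac in 1 of 3 DP libraries. The same count, 1 of 3, was found in Pdgfra+ cells, so H3K27ac at this locus did not set DP apart from them. H3K4me1 stood at Pou5f1 in 3 of 3 DP and 1 of 3 Pdgfra+ libraries. In at least 2 of 3 libraries it stood at 3 of 5 pluripotency markers in DP and at 0 of 5 in Pdgfra+ cells. Pdgfra+ replicates 1 and 2 had the shortest H3K4me1 lists, at 1723 and 1074 peaks. Of 10 fibroblast markers, which the feeder cells would carry, 1 (Col1a1) had H3K27ac in Oct4+ cells and 0 did in DP or Pdgfra+ cells.

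H3K27me3 was the most frequent of the 4 marks at the Hox genes in every population. All 38 genes had an H3K27me3 peak in at least 2 of 3 DP libraries, where 21.9% of all protein-coding genes did. In Oct4+ cells 29 of 38 genes met this count against 13.1% of all genes, and in Pdgfra+ cells 26 of 38 against 10.1%. No Hox gene lacked H3K27me3 altogether: each was marked in 5 or more of the 9 lists, 7 genes were marked in all 9, and 66.7% of all protein-coding genes were marked in none. Hox genes are shorter than most, with a median body of 3.5 kb against 17.4 kb, so windows of body plus flank are not of equal length. In windows of equal length, 1 kb either side of the start, H3K27me3 stood at 20 Hox genes in Oct4+ against 9.41% of all genes, at 31 in DP against 14.9% and at 18 in Pdgfra+ against 5.98%. By library, 38 of 38 genes had a peak in each DP library, in Oct4+ replicate 3 and in Pdgfra+ replicate 3. The other counts were 19 in Oct4+ replicate 1, 29 in Oct4+ replicate 2, 16 in Pdgfra+ replicate 1 and 23 in Pdgfra+ replicate 2.

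The lowest counts came from the shortest lists. The number of protein-coding genes with an H3K27me3 peak was 1606, 2764 and 4815 in the Oct4+ libraries, 3901, 6029 and 4651 in the DP libraries, and 997, 2080 and 4584 in the Pdgfra+ libraries. When a peak was required in both of the other 2 libraries of a population, the Oct4+ count was 19 without replicate 2 or without replicate 3, and the Pdgfra+ count was 16 without replicate 2 and 13 without replicate 3. With the same number of peaks taken from every list, those of highest total signal, the count was 21 in Oct4+, 28 in DP and 22 in Pdgfra+. Not all 38 genes met it in DP there, and the Hox counts of the populations lay closer together. The shares of all genes for these counts are not given here. No Hox gene had H3K27me3 in 3 of 3 DP and 0 of 3 Pdgfra+ libraries, a pattern that 1.84% of all protein-coding genes showed.

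The covered share of a span was highest on average in DP cells for all 4 clusters and lowest in Pdgfra+ cells, and in no cluster did the populations differ by the exact permutation test. H3K27me3 peaks covered 14.8, 55.3 and 82.6% of the Hoxa span in the Oct4+ libraries, 84.9, 86.7 and 75.9% in the DP libraries, and 11.5, 38.8 and 95.3% in the Pdgfra+ libraries. The DP libraries lay close together, whereas the first replicate of each other population lay far below them and replicate 3 did not, so that both overlapped DP. Hoxa averaged 82.5% ± 5.80 in DP, 50.9% ± 34.1 in Oct4+ and 48.5% ± 42.8 in Pdgfra+ cells (SD, n = 3 each).

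In Hoxb the covered share was 5.24, 16.2 and 56.0% in Oct4+, 44.9, 49.5 and 41.8% in DP, and 2.97, 14.1 and 43.3% in Pdgfra+ libraries. In Hoxc it was 2.09, 16.9 and 80.6% in Oct4+, 55.1, 67.6 and 44.6% in DP, and 1.23, 5.97 and 43.4% in Pdgfra+ libraries. For both clusters the third Oct4+ library had the highest value of all 9, and in Hoxc the 3 Pdgfra+ libraries lay below the 3 DP libraries, by as little as 43.4 against 44.6%. In Hoxd the covered share was 12.6, 36.4 and 83.0% in Oct4+, 75.9, 87.2 and 61.5% in DP, and 2.90, 12.5 and 63.6% in Pdgfra+ libraries. DP exceeded Pdgfra+ by 34.0 percentage points in Hoxa, 25.3 in Hoxb, 38.9 in Hoxc and 48.6 in Hoxd. Single Pdgfra+ libraries moved these differences: they were 15.4, 16.7, 31.1 and 36.9 points without Pdgfra+ replicate 1, and 57.3, 36.8, 52.2 and 67.2 points without replicate 3. An exact permutation test across the 3 populations (two-sided, smallest possible p = 0.00357) gave p = 0.411, 0.304, 0.268 and 0.218, with an adjusted p of 0.696 for each by the Benjamini-Hochberg method over 12 tests.

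**Figure D1:**
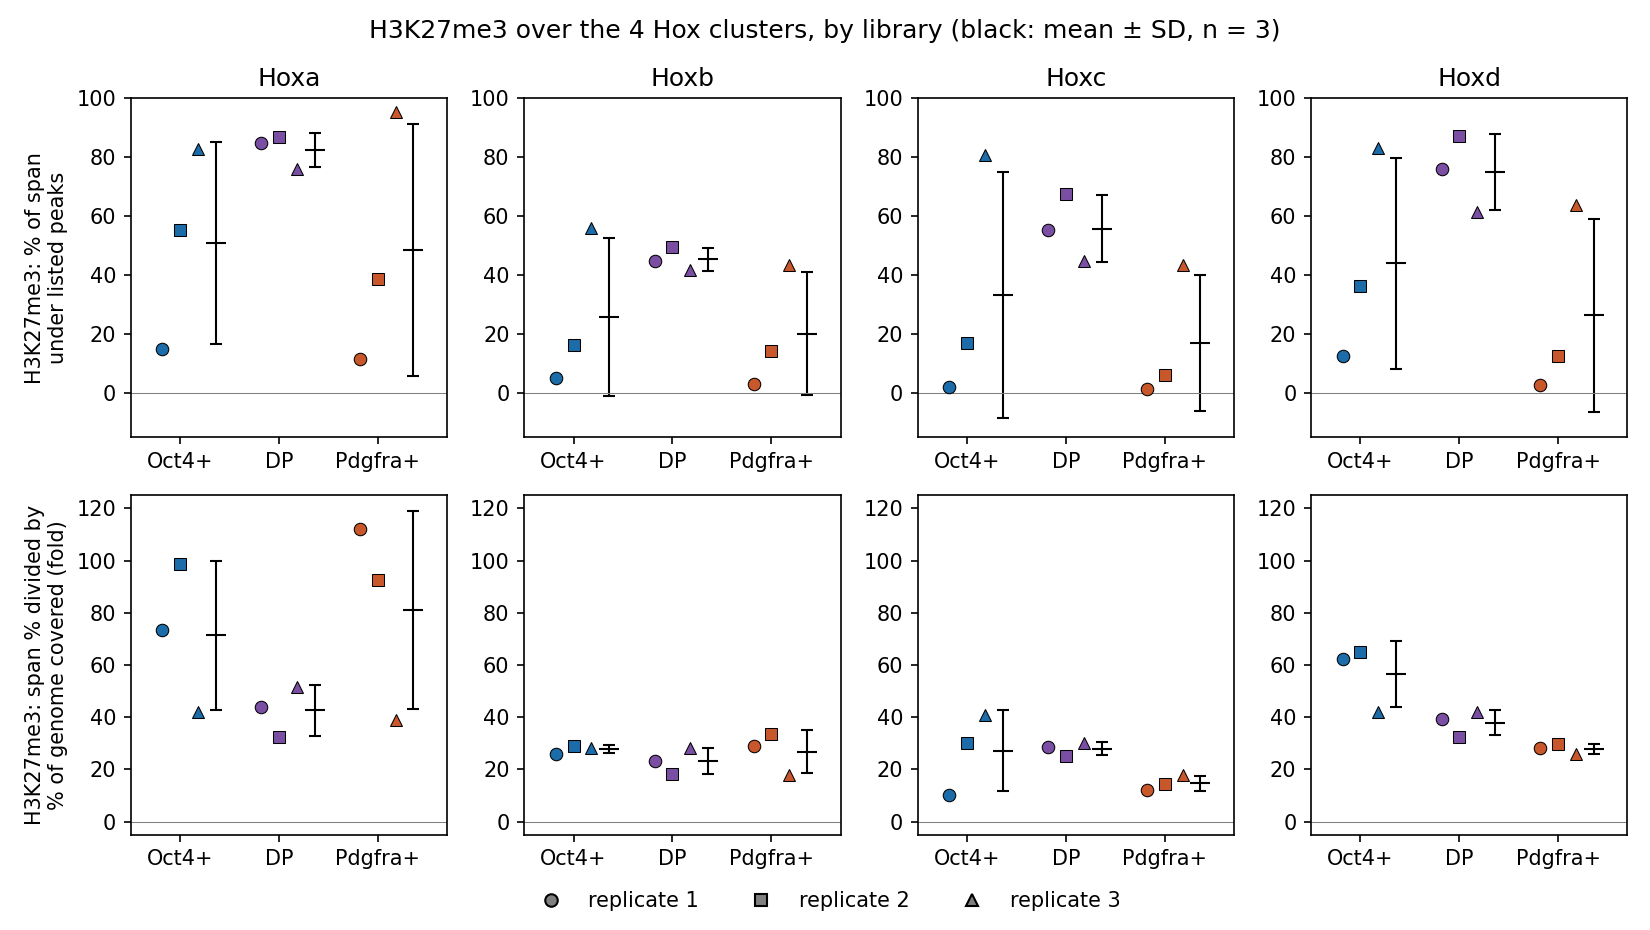
Percent of each Hox span under listed H3K27me3 peaks (upper row) and that percent divided by the percent of the genome the same list covers (lower row, fold), for 9 libraries; symbols give the replicate and black bars the mean ± SD of 3 libraries. In the upper row the DP libraries lie between 41.8 and 87.2% while Oct4+ and Pdgfra+ libraries spread from 1.23 to 95.3%, and in the lower row the 3 populations do not overlap in Hoxd. The fold cannot exceed 37.3 in DP replicate 2 or 40.8 in Pdgfra+ replicate 3, below the Oct4+ values of Hoxd.

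The long lists covered more of every cluster than the short ones. The 5 lists that covered 1.47 to 2.68% of the genome (3 DP, Oct4+ replicate 3 and Pdgfra+ replicate 3) covered 75.9 to 95.3% of Hoxa, and the 4 lists that covered 0.103 to 0.560% of the genome covered 11.5 to 55.3% of it. The same 5 lists lay above the same 4 in the other clusters too, without overlap. In Hoxb the ranges were 41.8 to 56.0% against 2.97 to 16.2%, in Hoxc 43.4 to 80.6% against 1.23 to 16.9%, and in Hoxd 61.5 to 87.2% against 2.90 to 36.4%. All 3 DP lists were among the 5 long ones, so the population and the extent of its lists cannot be told apart on this scale.

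**Figure D2:**
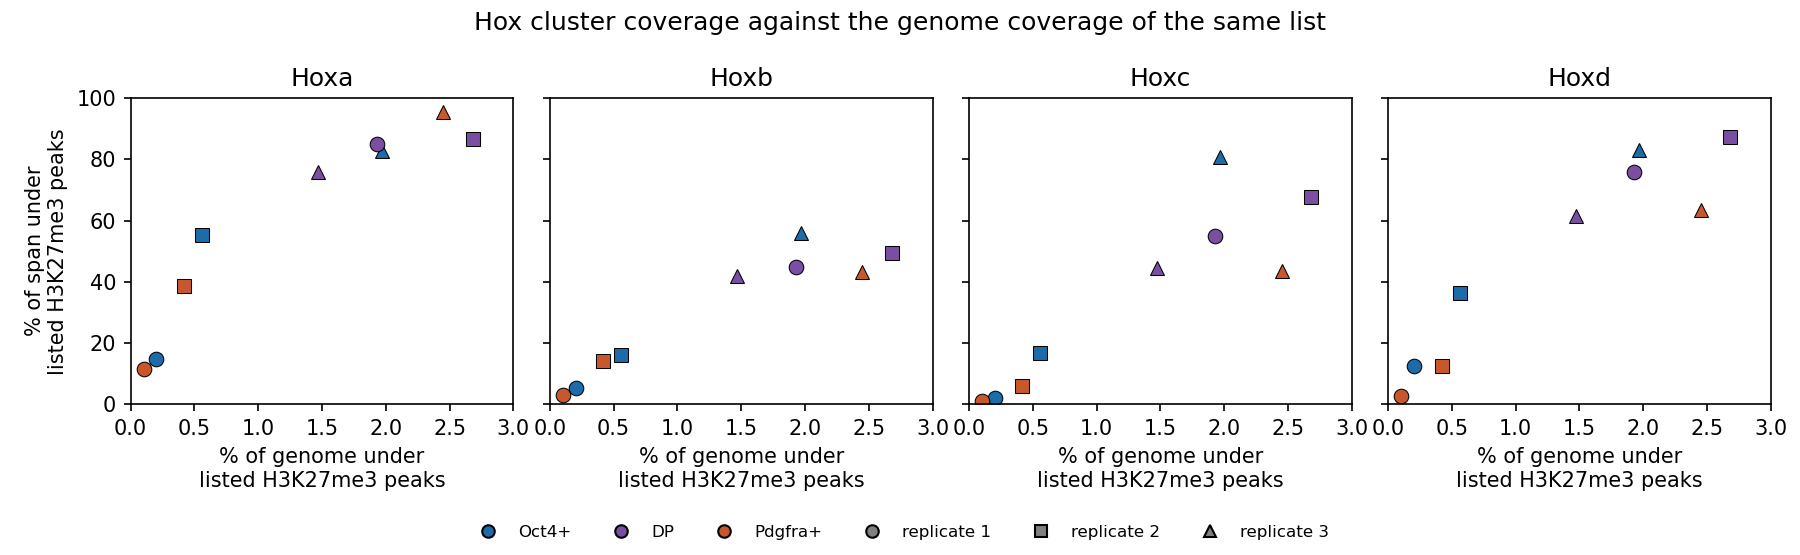
Percent of each Hox span under listed H3K27me3 peaks (y axis) against the percent of the genome under the same list (x axis), 1 point per library, coloured by population and shaped by replicate. The 4 lists that cover at most 0.560% of the genome lie below the 5 that cover at least 1.47% in every cluster.

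On 2 other scales H3K27me3 gave another order for 3 of the 4 clusters. Divided by the percent of the genome covered, the Hoxd span was 62.4, 65.0 and 42.1 times the genome's share in Oct4+ libraries, 39.3, 32.5 and 41.9 times in DP libraries, and 28.2, 29.8 and 25.9 times in Pdgfra+ libraries. The 3 populations did not overlap on this scale, although the lowest Oct4+ value (42.1) and the highest DP value (41.9) nearly met. A span cannot be covered beyond its whole length, so each list sets a ceiling on this fold. The ceiling was 37.3 in DP replicate 2 and 40.8 in Pdgfra+ replicate 3, below every Oct4+ value. In DP replicate 1 it was 51.7, below Oct4+ replicates 1 and 2. These lists could not have reached those Oct4+ values at any cover of Hoxd. The other DP and Pdgfra+ ceilings, 68.0 in DP replicate 3 and 974 and 239 in Pdgfra+ replicates 1 and 2, lay above all Oct4+ values. The exact permutation test gave p = 0.00357, the smallest it can give, with an adjusted p of 0.0429. The adjustment on each scale covers the 12 tests of that scale and does not count the choice among scales. As a share of all listed H3K27me3 signal, Hoxd held 0.242, 0.213 and 0.179% in Oct4+, 0.149, 0.124 and 0.149% in DP, and 0.0877, 0.0896 and 0.0904% in Pdgfra+ libraries, again without overlap (exact permutation p = 0.00357, adjusted p = 0.0429). Among the short lists the fold over the genome was 62.4 and 65.0 in Oct4+ against 28.2 and 29.8 in Pdgfra+, and among the long ones 42.1 in Oct4+ against 25.9 in Pdgfra+ and 32.5 to 41.9 in DP. The call rested on all the DP and Pdgfra+ libraries. Without any 1 of these 6 the adjusted p was 0.386 to 0.557 for the fold and 0.0857 for the signal share, and without any 1 Oct4+ library it stayed at 0.0429. On both scales the order Oct4+, DP, Pdgfra+ replaced the order DP, Oct4+, Pdgfra+ of the covered share.

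Hoxa and Hoxb changed direction between scales. Relative to the genome, Hoxa averaged 42.6 ± 9.73 times in DP and 81.0 ± 37.7 times in Pdgfra+ cells, the reverse of the covered share (exact permutation p = 0.293 over the 3 populations, adjusted p = 0.643, n = 3 each). The ceiling of this fold, set by the extent of the list, applies to Hoxa as well. The ceiling was 37.3 in DP replicate 2 and 40.8 in Pdgfra+ replicate 3, and 239 and 974 in the short Pdgfra+ lists. The long Pdgfra+ list, at 38.9 times, lay among the DP libraries (32.3 to 51.6), and the short ones were at 112 and 92.6 times. Hoxb averaged 23.4 ± 5.0 times in DP and 26.8 ± 8.24 times in Pdgfra+ cells (exact permutation p = 0.654, adjusted p = 0.905). Hoxc kept DP above Pdgfra+ at 28.0 ± 2.60 against 14.6 ± 2.89 times, and its Oct4+ libraries, at 10.3, 30.1 and 40.9 times, spanned both. In every library of every population each of the 4 spans was covered at least 10.3 times more densely than the genome.

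The clusters themselves had a steadier order than the populations. Hoxa was covered more than Hoxb and more than Hoxc in 9 of 9 libraries, and more than Hoxd in 7 of 9, with a median difference of 8.98 percentage points to Hoxd. Hoxc was covered less than Hoxd in 9 of 9 libraries. Hoxb and Hoxc changed places, Hoxb being higher in 3 of 9. In Hoxb, 0.0 to 25.5% of the stretch of 74.0 kb between Hoxb13 and Hoxb9 was covered. From Hoxb9 to Hoxb1 (96.8 kb) the covered share was 9.42, 25.5 and 94.6% in Oct4+, 66.1, 66.2 and 60.0% in DP, and 2.32, 18.3 and 64.1% in Pdgfra+ libraries. Even so, it lay below the covered share of Hoxa in every library but Oct4+ replicate 3. All 4 spans are poor in repeats and rich in CpG: repeat-masked bases made up 13.4% of Hoxa, 24.6% of Hoxb, 15.9% of Hoxc and 14.4% of Hoxd against 36.4% of the genome, and CpG dinucleotides numbered 29.9, 20.9, 21.5 and 28.0 per kb against 8.26.

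Within a span H3K27me3 lay in broad domains that took in several genes at once. The widest single peak over a Hox span was 80.7 kb in Hoxa of Pdgfra+ replicate 3, where it ran over 8 gene bodies from Hoxa3 to Hoxa11 and was the fifth widest of 6151 peaks. In Oct4+ replicate 3 a peak of 69.7 kb ran over 6 bodies from Hoxb7 to Hoxb2 and was the third widest of 5785. DP replicates 1 and 2 had peaks of 48.4 and 48.8 kb from Hoxb9 to Hoxb5. In the shortest lists the same spans held separate small peaks: the widest in Hoxa was 3.76 kb in Oct4+ replicate 1 and 3.56 kb in Pdgfra+ replicate 1. Neighbouring genes therefore often share 1 peak, and the 38 genes are not 38 independent observations.

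**Figure D3:**
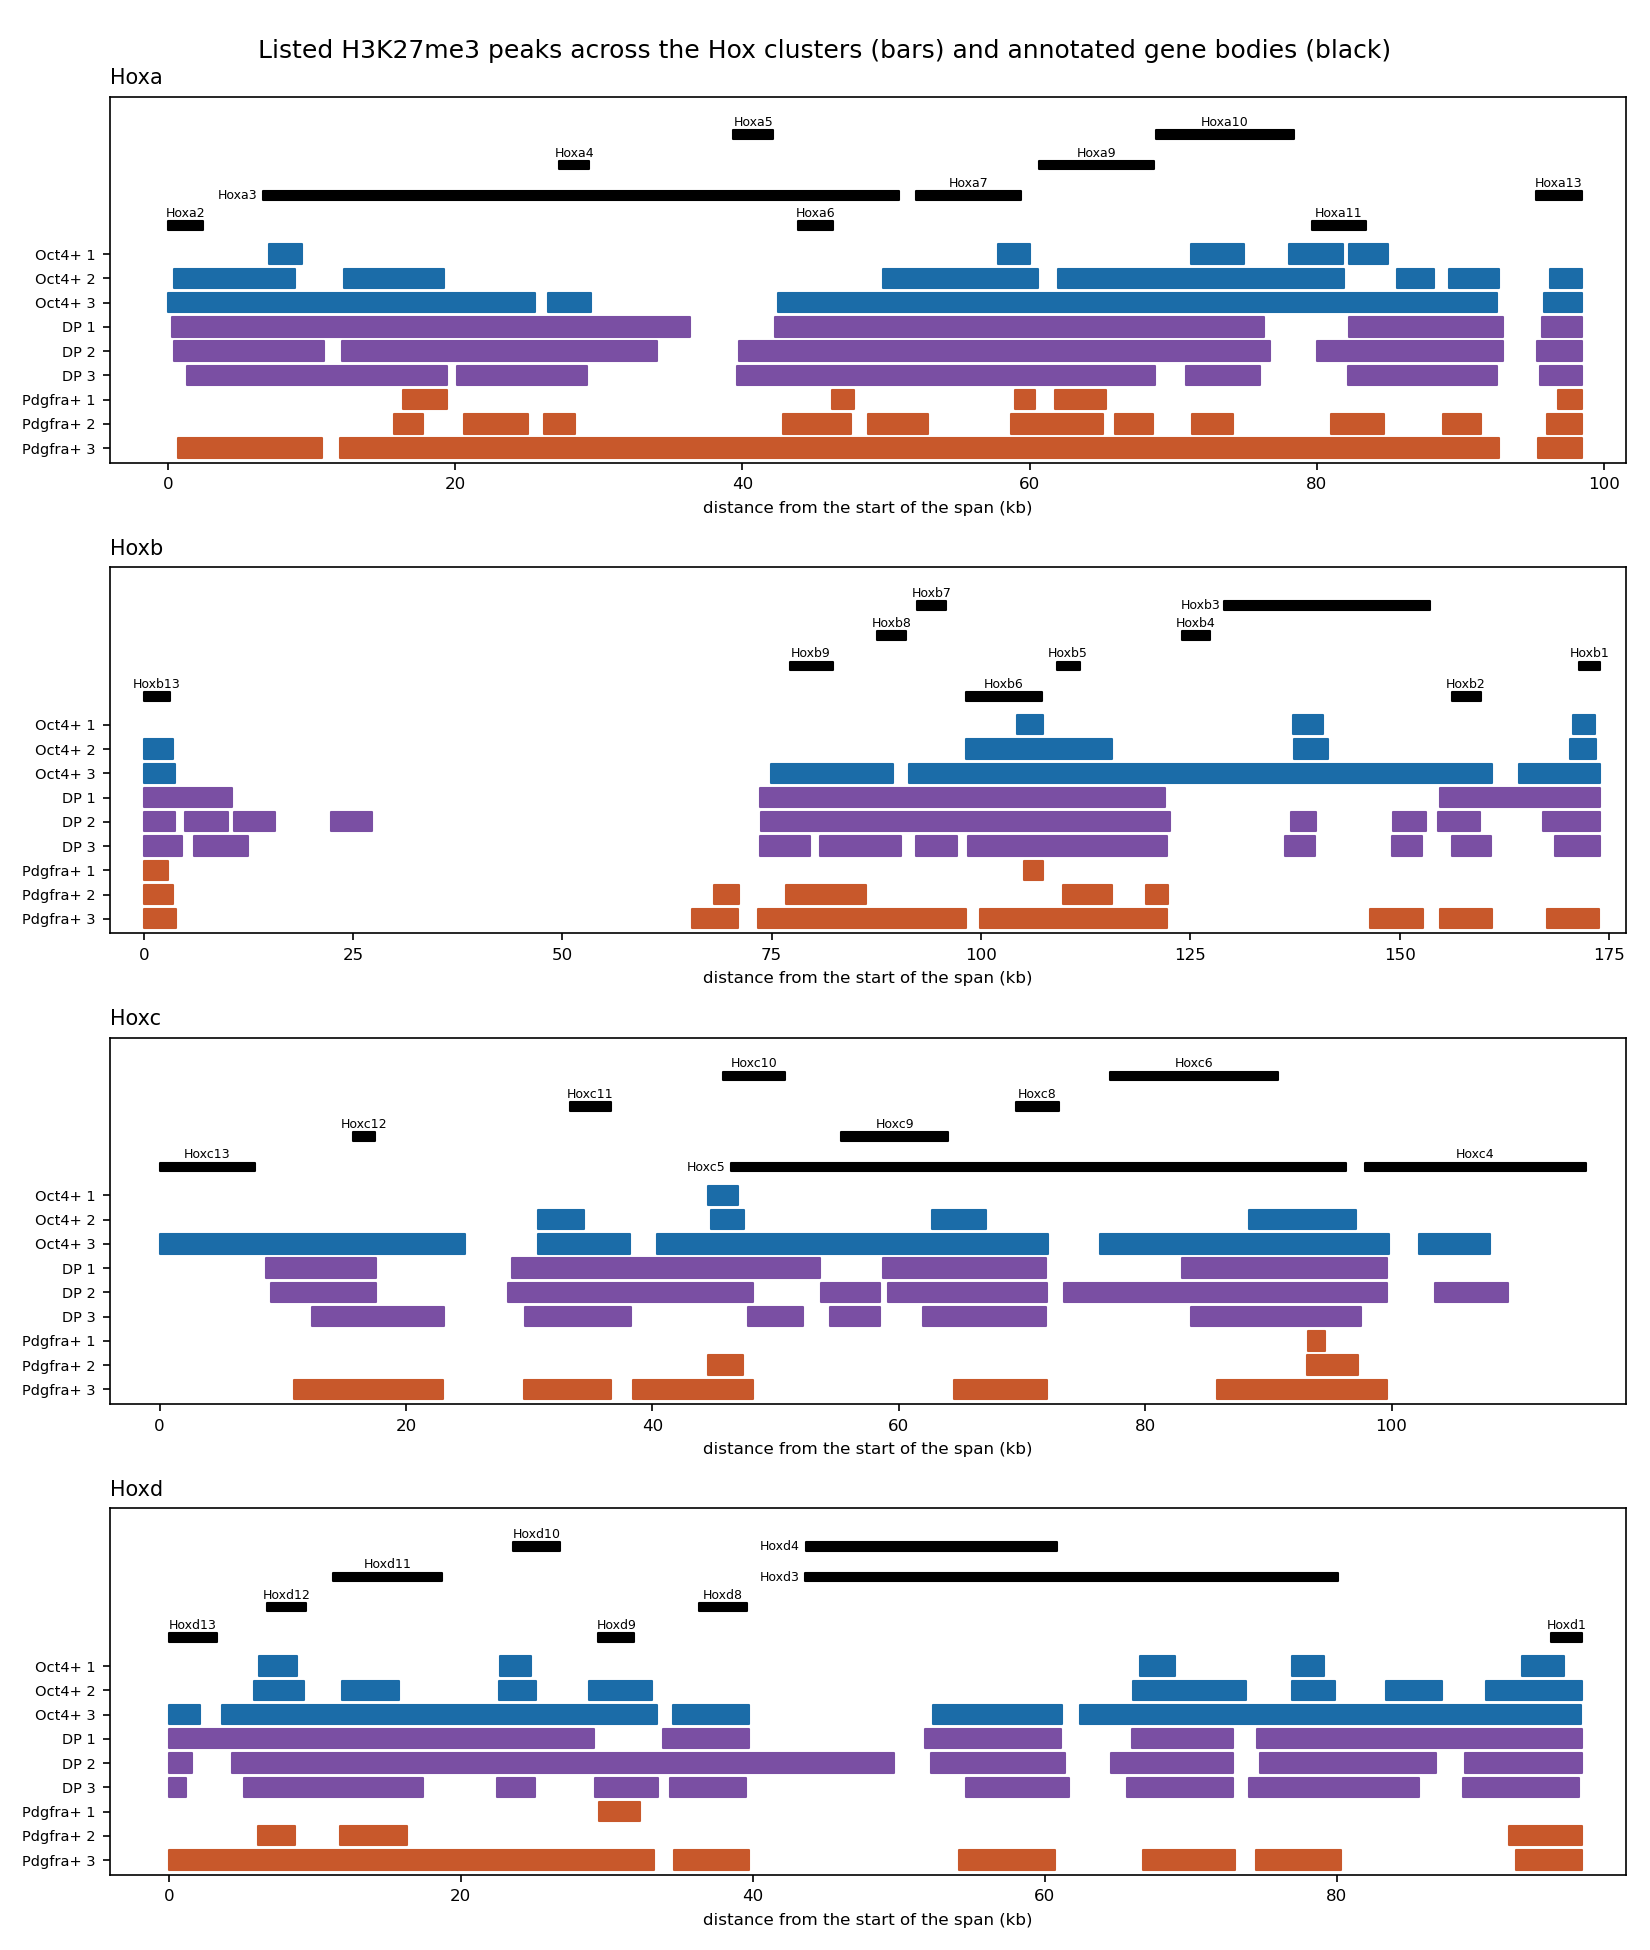
Listed H3K27me3 peaks (coloured bars) along the 4 Hox spans in 9 libraries, x axis in kb from the start of each span, with annotated gene bodies in black above. The DP rows show domains shared by all 3 replicates and interrupted at Hoxb4 and Hoxb3, and the stretch from 27 to 65 kb of the Hoxb span is empty in all 9 rows.

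The domains had edges and gaps at the same places in different libraries. In windows of 1 kb (counted as covered at 500 bp or more), all 3 DP libraries covered 71 of 98 windows of Hoxa, 60 of 173 of Hoxb, 37 of 115 of Hoxc and 53 of 96 of Hoxd. Windows covered in none of the 9 libraries numbered 2 in Hoxa, 46 in Hoxb, 12 in Hoxc and 2 in Hoxd, and the longest run of them, 38 kb, lay in the stretch between Hoxb13 and Hoxb9. At the Hoxa2 end of Hoxa, 6 libraries of all 3 populations had a peak that ended 1.06 to 2.66 kb downstream of the Hoxa2 start, and these 6 ends lay within 1.59 kb of each other. A stretch of 13 kb from 123 to 136 kb of the Hoxb span, which holds the starts of Hoxb4 and Hoxb3, was covered in 0 of 3 DP and 0 of 3 Pdgfra+ libraries and in 1 Oct4+ library, replicate 3. The first 9 kb of Hoxc, with the start of Hoxc13, showed the same: 0 DP, 0 Pdgfra+ and 1 Oct4+ library.

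Promoters of Hox genes ran from 0 to 8 of 9 libraries with H3K27me3. The RefSeq table (GRCm38.p6) gave 24 promoters of 300 bases for 22 of the 38 genes, from 250 bases before the start to 50 after it. Of these, 11 had H3K27me3 in at least 7 libraries, 10 in 3 to 6 and 3 in at most 1. Those shown first had H3K27me3 in 8 of 9 libraries (Hoxa13, Hoxd12 and Hoxd1), Hoxb1 had it in 7 of 9 with H3K4me1 in 2 Oct4+ libraries, and Hoxb4 and Hoxd3 had it in 1 of 9. They were chosen from both ends of the range for these values. Capitals mark CpG, the letters CG, which read the same on both strands and occur at least once in 94.6% of the 32851 promoters in the table.
Hoxa13 promoter, chr6:52260831-52261130, minus strand: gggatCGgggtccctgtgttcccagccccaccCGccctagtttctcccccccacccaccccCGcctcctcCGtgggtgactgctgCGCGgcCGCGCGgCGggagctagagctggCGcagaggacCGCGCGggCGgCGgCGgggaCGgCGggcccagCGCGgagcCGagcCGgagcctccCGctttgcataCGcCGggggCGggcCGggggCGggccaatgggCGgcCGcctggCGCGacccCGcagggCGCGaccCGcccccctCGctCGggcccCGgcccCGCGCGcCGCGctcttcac
Hoxd12 promoter, chr2:74674763-74675062, plus strand: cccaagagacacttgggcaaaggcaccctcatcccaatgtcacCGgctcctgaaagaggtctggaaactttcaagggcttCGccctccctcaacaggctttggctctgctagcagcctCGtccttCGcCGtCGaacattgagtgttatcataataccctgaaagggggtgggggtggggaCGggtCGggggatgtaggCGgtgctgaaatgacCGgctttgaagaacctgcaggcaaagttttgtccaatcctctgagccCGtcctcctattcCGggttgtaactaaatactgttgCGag
Hoxd1 promoter, chr2:74762730-74763029, plus strand: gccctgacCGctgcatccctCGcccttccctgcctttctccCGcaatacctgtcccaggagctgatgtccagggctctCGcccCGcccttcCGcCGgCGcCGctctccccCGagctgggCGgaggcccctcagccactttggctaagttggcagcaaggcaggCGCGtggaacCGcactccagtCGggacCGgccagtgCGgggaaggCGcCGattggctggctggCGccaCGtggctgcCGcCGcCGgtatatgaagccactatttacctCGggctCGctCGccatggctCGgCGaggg
Hoxb1 promoter, chr11:96365508-96365807, plus strand: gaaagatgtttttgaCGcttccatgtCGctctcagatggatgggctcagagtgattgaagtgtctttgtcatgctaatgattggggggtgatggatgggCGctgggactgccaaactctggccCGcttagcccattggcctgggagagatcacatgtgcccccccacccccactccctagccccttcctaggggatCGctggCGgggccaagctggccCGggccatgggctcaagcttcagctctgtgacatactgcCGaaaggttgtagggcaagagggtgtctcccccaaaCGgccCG
Hoxb4 promoter, chr11:96318017-96318316, plus strand: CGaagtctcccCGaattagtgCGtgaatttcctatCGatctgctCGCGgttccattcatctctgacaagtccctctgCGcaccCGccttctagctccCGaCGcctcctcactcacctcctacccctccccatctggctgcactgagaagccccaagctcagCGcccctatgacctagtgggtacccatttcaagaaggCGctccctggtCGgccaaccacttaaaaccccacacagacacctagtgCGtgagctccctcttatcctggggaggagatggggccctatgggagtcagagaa
Hoxd3 promoter, chr2:74711743-74712042, plus strand: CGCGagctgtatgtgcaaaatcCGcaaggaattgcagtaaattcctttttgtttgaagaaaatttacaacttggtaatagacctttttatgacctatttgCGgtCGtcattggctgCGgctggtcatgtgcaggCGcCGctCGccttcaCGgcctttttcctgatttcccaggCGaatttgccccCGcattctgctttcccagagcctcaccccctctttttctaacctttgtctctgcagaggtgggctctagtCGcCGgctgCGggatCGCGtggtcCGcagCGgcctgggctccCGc
All 6 lie at the start of their own gene body in GENCODE, and the Hoxd3 one also overlaps the annotated start of Hoxd4. Hoxa13 held 45 CpG, Hoxd1 29, Hoxd3 20, Hoxb4 14, Hoxd12 13 and Hoxb1 10, against a median of 7 over all promoters in the table. The 24 Hox promoters ranged from 4 to 45 CpG, with a median of 14.5, so some lay below the table's median. The Hoxa9 entry, 3.72 kb from the GENCODE start, held 4 CpG and had H3K27me3 in 8 of 9 libraries.

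Among the 7 anterior genes, 6 had H3K27me3 in at least 2 Oct4+ libraries, 7 in DP and 2 in Pdgfra+. The median covered share of their windows was 40.7% in Oct4+, 66.8% in DP and 18% in Pdgfra+ cells. Hoxb1, which patterns the hindbrain, was covered to 20.8, 25.1 and 100% in Oct4+, 100, 94.0 and 57.1% in DP, and 0.0, 0.0 and 48.8% in Pdgfra+ libraries. The 3 DP libraries lay above the 3 Pdgfra+ libraries, and Oct4+ overlapped DP. Hoxb2, also a hindbrain gene, had a peak in 5 of 9 libraries and was at 0.0, 0.0 and 76.3% in Oct4+, 73.1, 51.1 and 44.9% in DP, and 0.0, 0.0 and 57.5% in Pdgfra+ libraries. It had no listed peak in 4 libraries, and both other populations overlapped DP through replicate 3.

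Hoxa3, which is needed for the thymus and parathyroid, had a peak in 9 of 9 libraries. Its window was covered to 4.22, 37.4 and 74.3% in Oct4+, 89.1, 87.1 and 79.4% in DP, and 8.59, 32.3 and 97.8% in Pdgfra+ libraries. The DP libraries exceeded all Oct4+ libraries and overlapped Pdgfra+ replicate 3. Its annotated body of 44.3 kb reaches over Hoxa4, Hoxa5 and Hoxa6, so that these share its peaks. In the per-gene exact permutation test, adjusted over all protein-coding genes, Hoxb1 had p = 0.139 (adjusted p = 0.669), Hoxb2 p = 0.336 (adjusted p = 0.766) and Hoxa3 p = 0.279 (adjusted p = 0.708).

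Of the 15 central genes, 10 had H3K27me3 in at least 2 Oct4+ libraries, 15 in DP and 12 in Pdgfra+, with median covered shares of 29.3, 69.5 and 29.3%. Hoxb6, a trunk gene, had a peak in 9 of 9 libraries and was covered to 15.8, 73.6 and 100% in Oct4+, 100, 100 and 93.4% in DP, and 11.8, 12.9 and 91.4% in Pdgfra+ libraries. DP lay above Pdgfra+ without overlap, while Oct4+ replicate 3 matched DP (exact permutation p = 0.175, adjusted p = 0.669). Hoxa4, a gene of the neck vertebrae, was covered to 0.0, 0.0 and 52.3% in Oct4+, 100, 97.7 and 57.1% in DP, and 0.0, 41.2 and 100% in Pdgfra+ libraries. Here DP lay above Oct4+ without overlap and Pdgfra+ overlapped both (exact permutation p = 0.164, adjusted p = 0.669).

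Hoxc5 had a peak in 9 of 9 libraries and Hoxd4 in 5 of 9. Hoxc5, a trunk gene whose annotated body of 50 kb also takes in Hoxc9, Hoxc8 and Hoxc6, was covered to 4.03, 26.3 and 90.4% in Oct4+, 70.2, 84.6 and 53.8% in DP, and 2.37, 11.5 and 47.0% in Pdgfra+ libraries. Hoxd4, which shapes the neck vertebrae, was at 0.0, 0.0 and 49.3% in Oct4+, 38.2, 78.8 and 30.2% in DP, and 0.0, 0.0 and 28.4% in Pdgfra+ libraries. For both genes the DP libraries lay above the Pdgfra+ libraries and overlapped Oct4+ replicate 3, with exact permutation p = 0.225 for Hoxc5 and 0.229 for Hoxd4 and an adjusted p of 0.669 for each. The H3K27me3 values of Hoxa7, Hoxb5 and Hoxb4 were singled out after they were seen. Hoxa7, which helps to pattern the thoracic vertebrae, was the gene with H3K27me3 within 1 kb of its start in all 9 libraries. Hoxa7 and Hoxb5 were covered to 100% in each DP library, while Hoxb4, a neighbour of Hoxb5, was covered to 23.0, 27 and 24.0% there and to 100% in Oct4+ replicate 3.

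Of the 16 posterior genes, 13 had H3K27me3 in at least 2 Oct4+ libraries, 16 in DP and 12 in Pdgfra+, with median covered shares of 44.7, 74.0 and 40.4%. Hoxd11, which shapes the forearm and kidney together with its paralogues, was covered to 20.3, 46.1 and 100% in Oct4+, 100, 100 and 71.0% in DP, and 0.0, 39.9 and 100% in Pdgfra+ libraries. The 3 groups overlapped (exact permutation p = 0.357, adjusted p = 0.781). Hoxc12, a gene of the most posterior groups, was at 0.0, 0.0 and 100% in Oct4+, 58.6, 58.6 and 85.5% in DP, and 0.0, 0.0 and 97.9% in Pdgfra+ libraries. Its values were at 0.0 or near full cover outside DP and intermediate within DP (exact permutation p = 0.614, adjusted p = 1.0).

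Over all protein-coding genes, 7308 had a covered base of H3K27me3 in some library and entered the per-gene test. It called 0.0% of them, and 487 (6.66%) had an unadjusted p under 0.05. None of the 38 Hox genes, all tested, had an unadjusted p under 0.05, and the lowest exact permutation p was 0.107 (adjusted p = 0.669) for Hoxd1. With 3 libraries per population the exact permutation test cannot go below p = 0.00357, and the spread within Oct4+ and Pdgfra+ cells was wide for many genes. For some, such as Hoxc12 in Oct4+ and Hoxd11 in Pdgfra+, it ran from 0.0 to 100%.

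**Figure D4:**
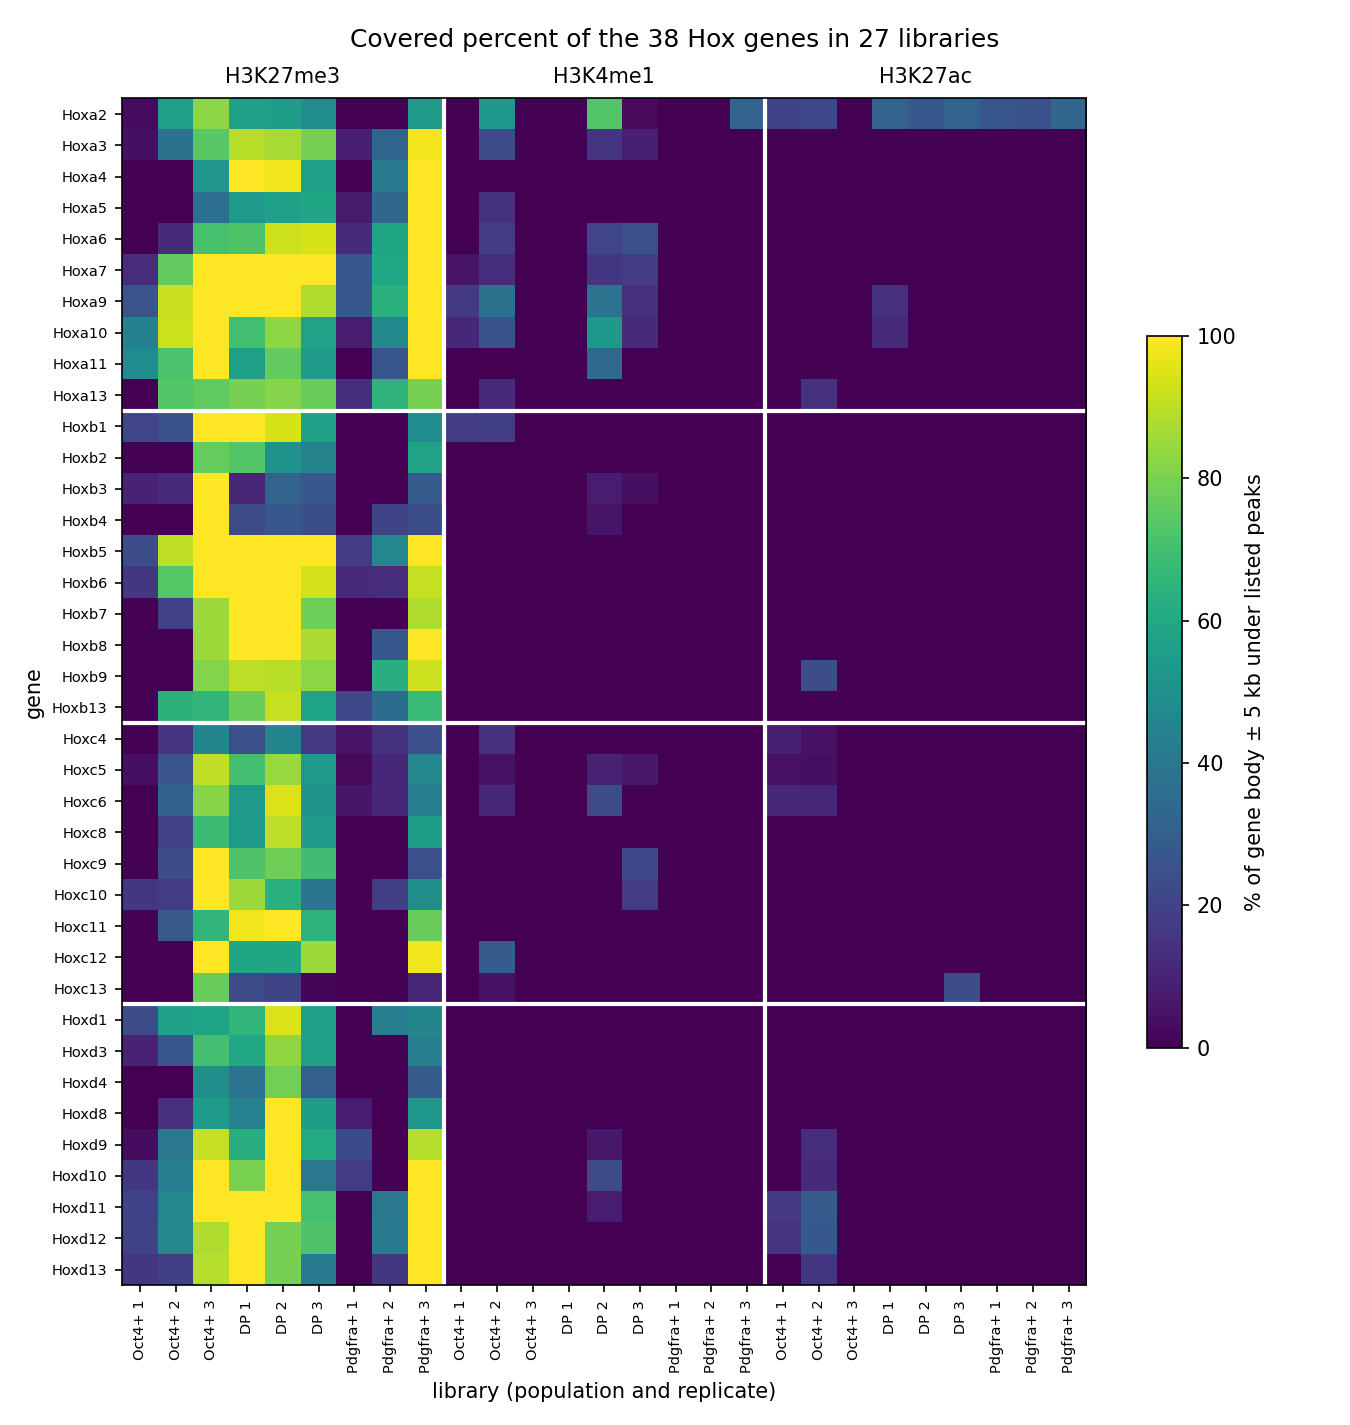
Percent of each Hox gene's body ± 5 kb under listed peaks (colour, 0 to 100%), for 38 genes (rows, by cluster and paralogue number) in 27 libraries (columns). H3K27me3 fills the DP columns and the third Oct4+ and Pdgfra+ columns, while H3K4me1 and H3K27ac are at 0 for most genes apart from the Hoxa2 row, whose H3K27ac lies outside the gene body.

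The small RNAs encoded in the clusters differed in how often H3K27me3 reached them. The miR-10 and miR-196 families are encoded beside Hox genes and are known to target Hox messages, and the mature forms are shown with their seed, bases 2 to 8, in capitals (RefSeq, GRCm38.p6), because the seed groups them into families.
miR-10a-5p: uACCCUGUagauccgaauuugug
miR-10b-5p: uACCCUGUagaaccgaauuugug
miR-196a-5p: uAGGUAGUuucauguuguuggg
miR-196b-5p: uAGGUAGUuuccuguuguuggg
miR-615-3p: uCCGAGCCugggucucccucuu
The 2 miR-10 forms share the seed ACCCUGU and the 2 miR-196 forms the seed AGGUAGU. H3K27me3 covered some of the Mir196b hairpin (chr6:52230081-52230165) in 7 of 9 libraries and the Mir615 locus (chr15:103014910-103015001) in 8 of 9. Mir10b, in Hoxd, had a peak in 1 Oct4+, 3 DP and 1 Pdgfra+ library, and Mir10a, upstream of Hoxb4, had one in Oct4+ replicate 3 alone. Mir196a-1, in the stretch between Hoxb13 and Hoxb9, had 0 Oct4+, 0 DP and 2 Pdgfra+ libraries, and Mir196a-2 had 1, 1 and 0. Of the long RNAs, Hoxb5os had H3K27me3 in 9 of 9 libraries, Hoxaas3, Hoxa11os and Haglr in 8 each, Hoxb3os and Hoxd3os1 in 5 each, and Hotair in 2.

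H3K4me1 in the clusters was found in few libraries and sat mostly in Hoxa. At least 2 of 3 libraries had an H3K4me1 peak at 4 of 38 Hox genes in Oct4+, where 19.8% of all protein-coding genes did. The count was 9 in DP against 23.9% of all genes, and 0 in Pdgfra+ against 6.62%. Within 1 kb of starts, where windows are of equal length, Hox genes were no longer below all genes in Oct4+: the counts were 3 (7.89%) against 4.19%, 2 (5.26%) against 6.34% in DP, and 0 against 0.647% in Pdgfra+. H3K4me1 peaks covered 3.11, 23.1 and 0.0% of the Hoxa span in Oct4+, 0.0, 22.9 and 7.28% in DP, and 0.0% in each Pdgfra+ library. The values overlapped at 0.0% in all 3 populations (exact permutation p = 0.464, adjusted p = 0.696). For Hoxb, Hoxc and Hoxd the means differed by 0.871, 2.75 and 1.03 percentage points, with exact permutation p of 0.357, 0.679 and 1.0.

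The 10 genes with H3K4me1 in at least 2 libraries of a population fell into 5 sets by the libraries they shared. Hoxa9, a posterior gene active in blood stem cells, was covered to 17, 37.7 and 0.0% in Oct4+, 0.0, 38 and 13.5% in DP, and 0.0% in each Pdgfra+ library, with the peaks within 1 kb of its start in those 4 libraries. Its neighbours Hoxa7 and Hoxa10 had peaks in the same 4 libraries, some of them the same peaks. Hoxa3, Hoxa6 and Hoxc5 had H3K4me1 in 2 DP libraries and in Oct4+ replicate 2, and Hoxa2 in these and in Pdgfra+ replicate 3. Hoxb1 had it in Oct4+ replicates 1 and 2, at 17.6 and 18.7%, over its start, and in no DP or Pdgfra+ library. Hoxb3 and Hoxb4 had it in DP replicates 2 and 3 from 1 peak per library inside the Hoxb3 body, 2.56 and 3.27 kb from the Hoxb3 start and within the stretch that no DP library covered with H3K27me3.

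These H3K4me1 counts came from few libraries. Oct4+ replicate 3 and DP replicate 1 had no H3K4me1 peak at any Hox gene, and Pdgfra+ had 1 gene (Hoxa2, in its flank) in replicate 3 alone. Required in both of the other libraries, the Oct4+ count was 0 without replicate 1 or without replicate 2, and the DP count was 0 without replicate 2 or without replicate 3. The per-gene test called 0.0% of 10995 genes, 656 had an unadjusted p under 0.05, and none of the 22 Hox genes tested did. Most of the peaks overlapped an H3K27me3 peak of the library with the same number: 2 of 3 peaks in the spans in Oct4+ replicate 1, 10 of 12 in Oct4+ replicate 2, 8 of 9 in DP replicate 2 and 5 of 6 in DP replicate 3. H3K27me3 covered 14.8, 55.3, 86.7 and 75.9% of Hoxa, where most of these peaks lie, in the same libraries, and the overlap was not compared with any other placing of the peaks. The libraries compared here are different samples of sorted cells, so that both marks in 1 cell were not measured.

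H3K27ac was sparse in the clusters, although the longest of the 36 lists were H3K27ac lists. A peak stood in at least 2 of 3 libraries at 6 of 38 Hox genes in Oct4+, where 56.2% of all protein-coding genes had one. The count was 1 in DP against 39.7%, and 1 in Pdgfra+ against 25.8%. In the windows of equal length around starts it was 0 of 38 in each population, against 33.0, 30.8 and 18.7% of all genes. Within the spans H3K27ac covered at most 2.46% of Hoxa, 2.07% of Hoxb, 2.30% of Hoxc and 6.94% of Hoxd in any library. It covered 0.0% of all 4 in each Pdgfra+ library, in Oct4+ replicate 3 and in DP replicate 2, the shortest H3K27ac list. The Oct4+ replicate 2 list covered 7.03% of the genome, and its share of each span was 0.233 to 0.988 times that. Means differed between the populations by 0.821, 0.690, 1.49 and 3.31 percentage points for Hoxa, Hoxb, Hoxc and Hoxd (exact permutation p = 1.0, 1.0, 0.464 and 0.25).

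The 6 genes in Oct4+ cells were Hoxd11, Hoxd12, Hoxc4, Hoxc5, Hoxc6 and Hoxa2. Hoxd11 was covered by H3K27ac to 16.6% in Oct4+ replicate 1 and 29.2% in replicate 2, over its gene body, and Hoxd12 shared these peaks through its flank at 15.5 and 27.5%. Hoxc5 was covered to 4.44 and 4.18% by 1 peak per library inside its long body, at different places in the 2 libraries. The replicate 1 peak also reached the windows of Hoxc6 (11.3%) and Hoxc4 (8.72%), and the replicate 2 peak that of Hoxc6 (10.6%). Hoxc4 was covered to 4.75% in replicate 2 by another peak, beyond the end of the span. All 5 were at 0.0% in Oct4+ replicate 3 and in every DP and Pdgfra+ library. For Hoxa2 no H3K27ac peak touched the gene body. In 8 of 9 libraries a peak lay in its flank, at least 3.33 kb from the Hoxa2 start. It was outside the Hoxa span as measured here between the listed members. The count in Oct4+ cells was 0 without replicate 1 or without replicate 2, and with gene bodies alone it was 2 (Hoxd11 and Hoxc5). Of the 10 fibroblast markers, Col1a1 had H3K27ac in 2 Oct4+ libraries (mean covered share 8.66% ± 7.73, SD, n = 3), 5 had it in 1, and Col1a2, Col3a1, Prrx1 and Tcf21 had it in none. The part of feeder chromatin in these peaks was not tested.

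The per-gene test called 0.0% of 16817 genes for H3K27ac, with 1342 at an unadjusted p under 0.05. Of the 14 Hox genes tested, 1 had an unadjusted p under 0.05: Hoxa2, through the flank described above (exact permutation p = 0.0214, adjusted p = 0.476). Its window was covered to 20.7, 21.2 and 0.0% in Oct4+, 31.3, 27.4 and 31.3% in DP, and 26.9, 25.3 and 32.9% in Pdgfra+ libraries. The Oct4+ values lay below all others.

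**Figure D5:**
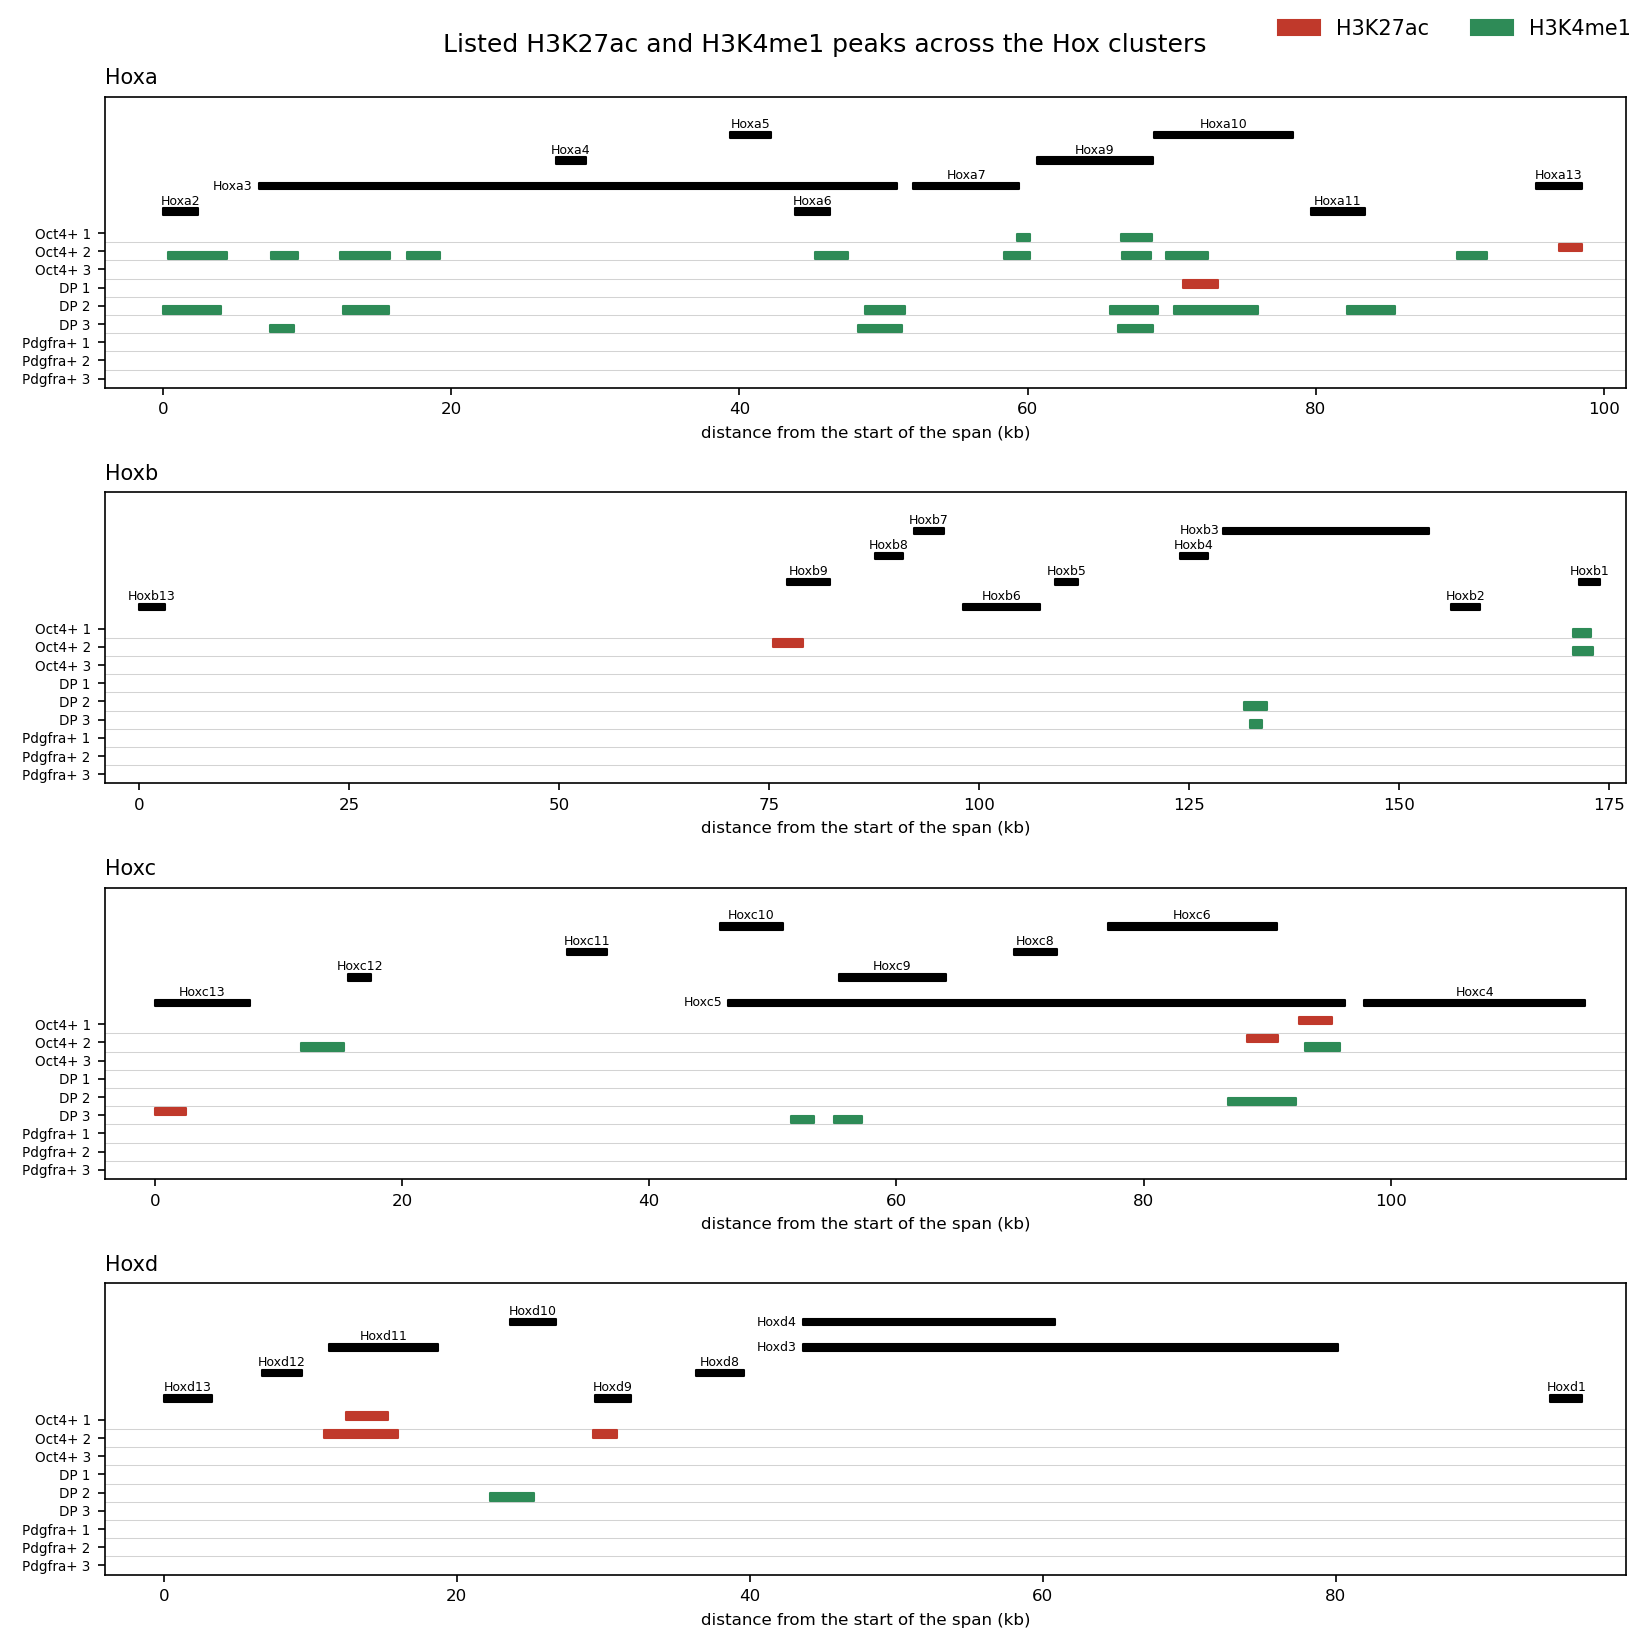
Listed H3K27ac (red) and H3K4me1 (green) peaks along the 4 Hox spans in 9 libraries of each mark, x axis in kb from the start of each span, with gene bodies in black. Peaks are few, stand mostly in Oct4+ replicates 1 and 2 and DP replicates 2 and 3, and no Pdgfra+ library has one within a span as measured here. The H3K27ac peak in the Hoxa2 flank lies outside the span.

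Read together per population (each mark in at least 2 of 3 libraries), the Hox genes were mainly in the class with H3K27me3 and neither H3K27ac nor H3K4me1. This class held 19 of 38 Hox genes (50%) in Oct4+ cells against 5.11% of all protein-coding genes, 29 (76.3%) against 12.9% in DP, and 26 (68.4%) against 8.92% in Pdgfra+. H3K27me3 and H3K4me1 without H3K27ac were found in the windows of 4 Hox genes in Oct4+ (Hoxa7, Hoxa9, Hoxa10 and Hoxb1) against 0.994% of all genes, of 8 in DP against 2.81% and of 0 in Pdgfra+ against 0.264%. A window can hold both marks at different places: at Hoxb3 and Hoxb4, 2 of the 8 in DP, the H3K4me1 peak lay in the stretch without H3K27me3. The class with none of the 3 marks held 9 Hox genes (23.7%) in Oct4+ against 36.1% of all genes, 0 in DP against 41.2% and 11 (28.9%) in Pdgfra+ against 63.3%. The class of H3K27ac or H3K4me1 without H3K27me3, to which 50.8, 36.9 and 26.5% of all genes belonged, held no Hox gene in Oct4+ or DP and in Pdgfra+ held Hoxa2 through its flank.

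H3K9me3 was not listed at any Hox gene in any of the 9 libraries, while 20.1% of all protein-coding genes had it in at least 2 of 3 Oct4+ libraries, 17.7% in DP and 15.6% in Pdgfra+. In the windows of equal length around starts the shares of all genes were 1.45, 1.04 and 1.07%. Against these, 0 of 38 Hox genes is close to the share of all genes. The 9 lists put H3K9me3 at 1698 to 5629 protein-coding genes each. Within the spans 3 peaks were listed, all between Hox genes. In DP replicate 3 a peak of 2.51 kb lay 32.3 kb from the Hoxb13 start, in the stretch between Hoxb13 and Hoxb9. In Oct4+ replicates 1 and 2 peaks of 2.16 and 2.83 kb overlapped each other over Hotair, a long noncoding RNA gene between Hoxc12 and Hoxc11. The per-gene test called 0.0% of 8810 genes, with 1073 at an unadjusted p under 0.05, and no Hox gene had a covered base to test.

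Genes around and upstream of the clusters were read from lists of known genes at the same threshold of 2 of 3 libraries. At this threshold H3K27ac stood at 56.2, 39.7 and 25.8% of all protein-coding genes in Oct4+, DP and Pdgfra+. H3K27me3 stood at 13.1, 21.9 and 10.1%. Evx1 and Evx2, the homeobox genes beyond the posterior ends of Hoxa and Hoxd, had H3K27me3 in all 3 populations. Of the 9 annotated flanking genes, 4 had H3K27me3 in Oct4+, 6 in DP and 3 in Pdgfra+. Evx1 was covered to 78.9% ± 24.3 in Oct4+, 100% ± 0.0 in DP and 57.8% ± 36.6 in Pdgfra+ cells (SD, n = 3). The ParaHox genes, a sister set of homeobox genes, were marked as follows: Gsx1, Gsx2 and Pdx1 had H3K27me3 in Oct4+ and DP (3 of 3), Gsx1 and Gsx2 in Pdgfra+, and H3K27ac was at 0 of 3 in each population. Of 9 cofactor genes of the Meis, Pbx and Pknox families, whose products bind DNA with Hox proteins, 8 had H3K27ac in Oct4+, 5 in DP and 4 in Pdgfra+, and H3K27me3 stood at 2, 4 and 1.

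The 9 regulators comprised Cdx genes, retinoic acid receptors and Cyp26 enzymes that degrade retinoic acid. Of them 4 had H3K27me3 in Oct4+, 7 in DP and 4 in Pdgfra+, against 13.1, 21.9 and 10.1% of all genes. H3K27ac stood at 4, 3 and 2, against 56.2, 39.7 and 25.8% of all genes. Cdx2, an activator of central and posterior Hox genes and a trophectoderm factor, carried H3K27ac in 0 Oct4+, 2 DP and 3 Pdgfra+ libraries. Its H3K27me3 window was covered to 58.5% ± 38.2 in Oct4+, 78.2% ± 7.21 in DP and 23.3% ± 27.4 in Pdgfra+ cells (SD, n = 3). Among 10 Polycomb genes, 9, 7 and 6 had H3K27ac in Oct4+, DP and Pdgfra+, in the same order as the shares of all genes. Ezh2, Eed and Suz12 were in each set. Cbx2, which encodes a reader of H3K27me3, was the Polycomb gene with H3K27me3, in Oct4+ and DP. Trophectoderm markers had H3K27me3 at 4, 4 and 3 of 5 and fibroblast markers at 5, 6 and 3 of 10, and the part of other cell types in the Hox values was not tested.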

How the data were processed

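CUT&Tag libraries were sequenced paired-end by the authors, and the submitters' processing notes name bcl2fastq 2.19.1, Bowtie2, SAMtools 1.12, deepTools, SEACR and bedtools 2.26.0 with build mm10. The authors called peaks per library against IgG with SEACR in stringent mode. The deposited lists give each region's total and maximum signal, in coverage units whose scaling is not given in the sources used here, so signal was compared only within a list. The 3 IgG samples were not used here.

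Covered bases were counted with Python 3.11.15, NumPy 2.4.6 and pandas 2.3.3, and checked against bedtools 2.31.1 and on simulated data. Genes came from GENCODE vM21. Populations were compared by the between-group sum of squares over all 1680 assignments of 9 libraries, an exact permutation test, with Benjamini-Hochberg adjustment at 0.05. Named genes were, per cluster, those with H3K27me3 in most and fewest libraries, and every gene with H3K27ac or H3K4me1 in 2 of 3 libraries. Alternatives changed the peak number, signal limits, scale, window, span and libraries, and added the replicate number as a block. Members and lists were chosen with earlier results of these data known. 1 further gene found by the symbol pattern is not reported here.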

Additional observations from a re-analysis of the deposited data

How the results depend on the processing

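All 12 cluster comparisons stayed above an adjusted p of 0.05, with directions kept or lost to 0, under equal peak numbers, the upper 50% of peaks by signal, a common signal minimum, spans widened by 20 kb and each library left out, but not under the other 2 scales. Divided by the genome share, DP minus Pdgfra+ became -38.4 in Hoxa, -3.39 in Hoxb and, now called, 9.90 in Hoxd. As a share of signal it became -0.122, -0.0107 and, now called, 0.0515%. These calls are adjusted over the 12 tests of 1 scale and do not count the choice among scales. The H3K27ac differences of 0.821 (Hoxa), 0.690 (Hoxb), 1.49 (Hoxc) and 3.31 (Hoxd) and the H3K4me1 differences of Hoxb, Hoxc and Hoxd became 0.0 under equal peak numbers, and most of them also under the upper 50% of peaks or the common minimum. Leaving out 1 library, the H3K27me3 difference ranged from 15.4 to 57.3 in Hoxa, 16.7 to 36.8 in Hoxb, 31.1 to 52.2 in Hoxc and 36.9 to 67.2 in Hoxd, each time from the fit without Pdgfra+ replicate 1 to that without Pdgfra+ replicate 3. The H3K27ac difference ranged from 0.0 (without DP replicate 1) to 1.23 in Hoxa, 0.0 (without Oct4+ replicate 2) to 1.04 in Hoxb, 1.08 to 2.23 in Hoxc and 1.49 (without Oct4+ replicate 2) to 4.97 (without Oct4+ replicate 3) in Hoxd. The H3K4me1 difference ranged from 3.64 (without DP replicate 2) to 15.1 (without DP replicate 1) in Hoxa, where it was 1.36 with equal peak numbers, from 0.633 to 1.31 in Hoxb, 1.76 to 4.12 in Hoxc and 0.0 (without DP replicate 2) to 1.55 in Hoxd. On the other 2 scales, in fits chosen after seeing the data, DP minus Pdgfra+ of Hoxd ranged from 7.91 to 12.6 times and from 0.0472 to 0.0598% of the signal, and the call was lost without any 1 DP or Pdgfra+ library.

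Replicate numbers were not treated as pairs in the main test. In H3K27me3, same-numbered libraries had correlated deviations in 3 of 9 pairs (r over 0.1, range -0.335 to 0.542). No library correlated best with its own number. List length nevertheless rose with the number in Oct4+ (1629, 2948 and 5785 peaks) and in Pdgfra+ (1143, 2841 and 6151). In DP it did not (3798, 8672 and 6418), and the source of the shared rise was not tested. The covered share of Oct4+ lay above that of the same-numbered Pdgfra+ library in 3 of 3 pairs for Hoxb, Hoxc and Hoxd and in 2 of 3 for Hoxa. With the replicate block (labels permuted within a number, smallest possible p = 0.0278) the exact permutation p was 0.306 for Hoxa, 0.250 for Hoxb, 0.139 for Hoxc and 0.167 for Hoxd in H3K27me3, each with an adjusted p of 0.762. No call stood there to be lost. With the block the Hoxd differences on the other 2 scales, 9.90 and 0.0515%, had the smallest possible p and an adjusted p of 0.333, since a single comparison among 12 cannot pass with it. The per-gene tests called 0 genes under every alternative run, the block included, and with these smallest p-values they had little room to call any.

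Counts of Hox genes moved with the definition. The shares of all genes are not given for these settings, apart from the windows around starts. H3K27me3 in all 3 libraries gave 19 in Oct4+ and 13 in Pdgfra+. H3K27ac in Oct4+ gave 2 with gene bodies, 0 within 1 kb of starts, 0 with equal peak numbers, 3 with the upper 50% of peaks, 0 in all 3 libraries and 11 in at least 1. H3K27ac in DP and in Pdgfra+ gave 0 with gene bodies and near starts, and 4 in at least 1 DP library. H3K4me1 in Oct4+ gave 0 with equal peak numbers, 2 with the upper 50%, 0 in all 3 and 14 in at least 1, in DP 4 with bodies, 2 near starts, 0 with equal peak numbers, 2 with the upper 50%, 0 in all 3 and 16 in at least 1, and in Pdgfra+ 1 in at least 1. With 1 library left out, chosen after seeing the data and with a peak needed in both others, the H3K27me3 count ranged from 19 to 29 in Oct4+ and 13 to 23 in Pdgfra+, H3K27ac in Oct4+ from 0 to 6, and H3K4me1 from 0 to 4 in Oct4+ and 0 to 9 in DP. Without the 2 shortest H3K27me3 lists, also chosen after seeing the data, DP minus Pdgfra+ was 15.4, 16.7, 31.1 and 36.9 percentage points. The read depth behind the lists is unknown.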
